A study of Mus musculus with 6 samples.

Results

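The genes that lie beside Mog on mouse chromosome 17 were followed in regulatory T cells (Tregs), a class of CD4 T cell that keeps immune responses in check. They are a list of 31 named genes, chosen by a rule of place near Mog that uses no measured value, though with earlier results of these data known, with the H2-T and H2-Q genes left out. Of these names, 30 matched the symbol of a row, of 23725 genes in the tables. The name Tubb matched none, and the beta tubulin gene that the tables list as Tubb5 is therefore given with the other neighbours.

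Mog encodes myelin oligodendrocyte glycoprotein (MOG), a protein on the outer face of myelin. The tested Tregs came from mice that lack MOG in the whole animal (MOG KO, 3 libraries). The Tregs they were set against came from wild-type mice (WT, 3 libraries). Strain C57Bl/6 is given for both genotypes, all mice had been immunised with MOG, and the cells were taken from lymph nodes. Each library was made from the RNA of 500 cells. Whether each replicate is its own animal is not stated, so the tests reflect how these libraries vary, some of which may be technical. In bulk samples such as these, fewer cells of a type and less RNA per cell cannot be told apart.

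The segment belongs to the major histocompatibility complex (MHC), where class I genes that present peptides sit in clusters between genes of unrelated, mostly housekeeping functions. The same unrelated genes flank the class I clusters in mouse and human. A gene close to a targeted locus is inherited with it, so the comparison asks whether the linked genes were read differently in MOG KO Tregs. The labels do not give the strain of the cells in which Mog was targeted.

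Depth ran from 3450623 to 4361315 counts in MOG KO libraries and from 2717969 to 4472549 counts in WT libraries. Values are reads-per-million (RPM), and 10 RPM or more in a library counts as present there. A count of 0 allows up to 0.688 to 0.869 RPM in MOG KO libraries and up to 0.671 to 1.1 RPM in WT libraries (3 counts, covering counting error only). The T cell genes Cd3e and Cd4 were present in all 6 libraries, and Foxp3, which defines Tregs, in 5, with 8.22 RPM in WT replicate 3. The other Treg markers listed, Il2ra, Ctla4 and Ikzf2, were present in all 6 libraries. In WT replicate 3 they had 708, 74.3 and 1294 RPM, the value of Ctla4 being its lowest. The CD8 T cell markers Cd8a and Cd8b1 and the natural killer cell markers Ncr1 and Klrb1c had 0 counts in every library. The summed RPM of 4 B cell markers was 0, 129.8 and 1.16 in MOG KO libraries and 2.21, 206 and 87.3 in WT libraries, of which Cd79a had 0 counts in every library. The summed RPM of 4 myeloid markers was 5.3, 5.96 and 12.5 in MOG KO libraries and 15.1, 4.25 and 10.5 in WT libraries. The red cell gene Hbb-bs had 4.39, 6.42 and 11.3 RPM in MOG KO libraries, against 19.1, 2.91 and 18.1 RPM in WT libraries. The part of such other cells in the results was not tested.

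Mog itself had 0 counts in all 3 MOG KO libraries, against 1 count in WT replicate 1 (0.368 RPM) and 0 counts in the other WT libraries. These counts are at or under the floor in both genotypes and do not check the labels. Mog (Entrez 17441) lies on the minus strand of GRCm38 at chr17:37010740-37023398, and distances below run from its start to the start of each gene, negative toward lower coordinates.

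Along the chromosome the 30 members fall into 3 stretches, a division made after the positions were seen. A far stretch of 14 members, Vars2 to Gnl1, lies from -1356 to -1043 kb. Rpp21 and Trim39 follow at -766 and -751 kb. The last 14 members, Trim26 to H2-M2, lie from -186 to 460 kb and surround Mog. Zfp57 ends at 37010729 and Mog at 37010740, so the 2 genes run toward each other and nearly touch.

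Members were read in some libraries and near 0 in others. In MOG KO libraries 5, 9 and 6 of the 30 members were present (6.67 ± 2.08, SD, n = 3), and in WT libraries 10, 6 and 6 (7.33 ± 2.31, SD, n = 3). The ranges of the 2 genotypes overlapped. Summed over members, the level was 844, 2191 and 1815 RPM in MOG KO libraries and 1944, 1017 and 2165 RPM in WT libraries. The member with most reads was Ppp1r18 in MOG KO replicate 1, Abcf1 in replicate 2 and Trim26 in replicate 3, against Trim26, Gnl1 and Trim39 in WT replicates 1, 2 and 3.

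Over the whole list, 16 members (53.3%) were present in at least 1 library, compared with 33.3% of all genes. Present in all 6 libraries was 1 member (3.33%, against 2.97% of all genes). In none were 14 members, of which 9 had 0 counts throughout and 5 had between 1 and 17 counts in total. Of the 96 values of the 16 members ever present, 42 were at 10 RPM or more, 49 were under 3 RPM and 5 lay between. These 42 split into 20 in MOG KO libraries and 22 in WT libraries. Between libraries of 1 genotype, presence differed for 8.0 ± 1.9 members (SD, 6 pairs, from 5 to 10), and libraries of different genotype in 7.56 ± 1.59 members (9 pairs, from 6 to 11). Library pairs share libraries, so these are descriptions.

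**Figure D1:**
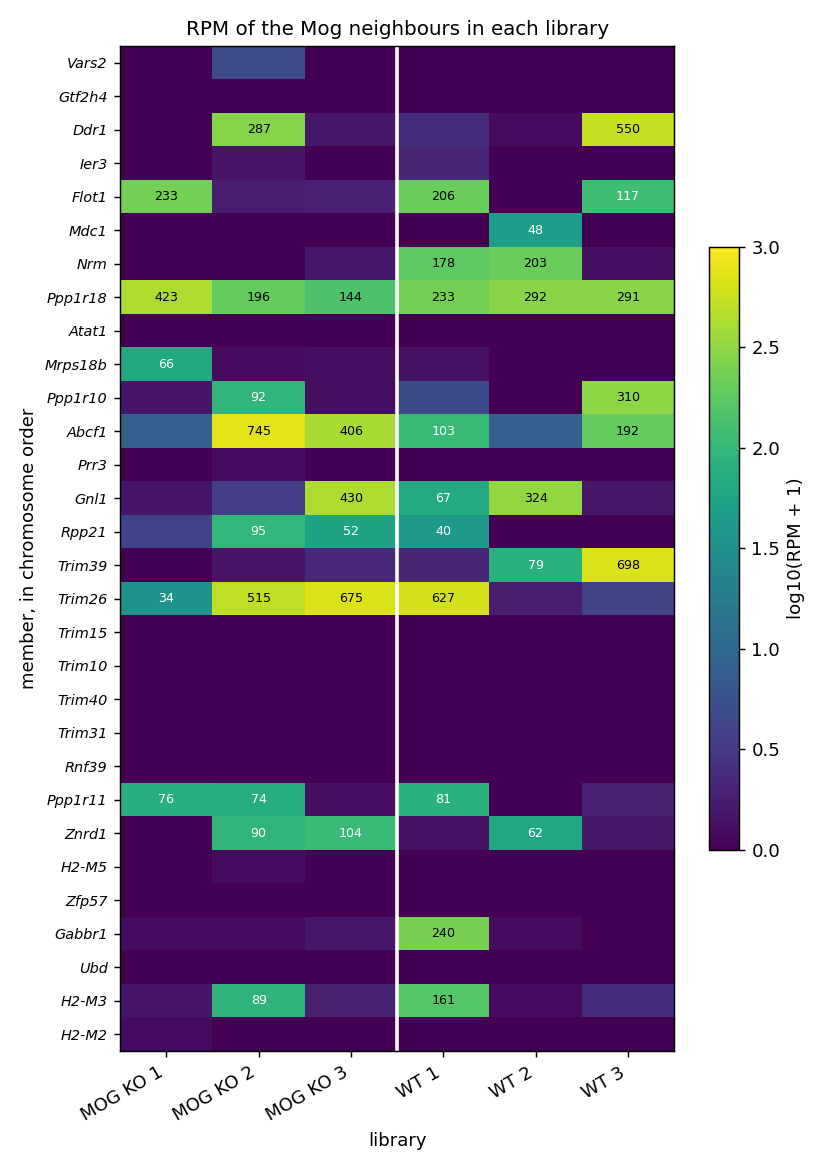
RPM of the 30 members (rows, in chromosome order, lowest coordinate at the top) in 3 MOG KO and 3 WT libraries (columns), coloured by log10(RPM + 1), with values of 10 RPM or more printed. Ppp1r18 is the member present in all 6 libraries, while Trim15, Trim10, Trim40, Trim31 and Rnf39 form a run of members with 0 counts.

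**Figure D2:**
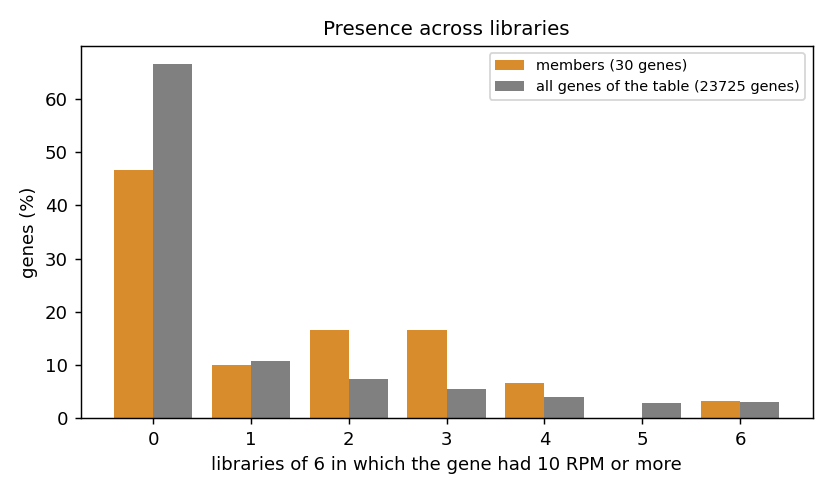
Share of genes (y axis, %) by the number of libraries in which they had 10 RPM or more (x axis), for the 30 members and for all 23725 genes. Of the members 46.7% were present in no library, against 66.7% of all genes.

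Sequence at the start of the genes was looked at because it was not used to choose them. RefSeq promoter windows on GRCm38.p6, from 250 bases before to 50 after the start, were held for 28 members, and Flot1 and Rpp21 had no entry. Where a gene had several windows, the first listed was used. Of the 28 windows 23 held the start of the gene's annotated span, and those of Nrm, Ppp1r10, Prr3, Zfp57 and H2-M5 lay at another listed start. CG dinucleotides, the sites of DNA methylation in mammals, were counted on the printed strand (the motif CG reads the same on both). The 14 members ever present held 8 to 41 of them (median 19.5), and the 14 members never present 0 to 28 (median 6). Windows with 10 or more CG made up 78.6% of the present and 35.7% of the other members. Over all genes with a window the shares were 85.1% of genes ever present, 42.7% of genes never present and 58.0% overall. No test was run.

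4 windows are printed to show this range, with each CG in capitals. Ppp1r18 is the member read in every library, Gnl1 has the most CG, Ubd has none and 0 counts, and the Mrps18b window also holds the start of the annotated span of Ppp1r10, whose own listed window lies farther on.
Ppp1r18 (chr17:35865345-35865644, plus strand, 12 CG): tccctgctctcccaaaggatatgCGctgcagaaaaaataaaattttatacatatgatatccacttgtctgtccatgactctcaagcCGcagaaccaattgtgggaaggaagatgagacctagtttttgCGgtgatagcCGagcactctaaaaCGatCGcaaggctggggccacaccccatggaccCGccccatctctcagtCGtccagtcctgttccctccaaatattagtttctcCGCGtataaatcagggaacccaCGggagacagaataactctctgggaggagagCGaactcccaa
Gnl1 (chr17:35979705-35980004, plus strand, 41 CG): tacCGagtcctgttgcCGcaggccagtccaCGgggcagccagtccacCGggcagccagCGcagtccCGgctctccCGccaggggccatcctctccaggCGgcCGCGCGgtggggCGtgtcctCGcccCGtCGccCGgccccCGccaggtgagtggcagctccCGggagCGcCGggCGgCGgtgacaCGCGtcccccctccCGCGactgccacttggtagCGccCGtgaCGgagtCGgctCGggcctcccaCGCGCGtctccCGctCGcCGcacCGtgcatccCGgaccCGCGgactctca
Mrps18b (chr17:35916391-35916690, minus strand, 25 CG): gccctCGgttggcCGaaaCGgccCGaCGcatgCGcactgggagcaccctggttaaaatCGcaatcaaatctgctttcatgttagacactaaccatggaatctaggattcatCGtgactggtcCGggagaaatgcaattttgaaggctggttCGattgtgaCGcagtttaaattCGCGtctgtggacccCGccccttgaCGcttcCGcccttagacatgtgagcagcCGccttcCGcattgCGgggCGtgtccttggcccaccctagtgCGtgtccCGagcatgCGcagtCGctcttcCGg
Ubd (chr17:37193642-37193941, plus strand, 0 CG): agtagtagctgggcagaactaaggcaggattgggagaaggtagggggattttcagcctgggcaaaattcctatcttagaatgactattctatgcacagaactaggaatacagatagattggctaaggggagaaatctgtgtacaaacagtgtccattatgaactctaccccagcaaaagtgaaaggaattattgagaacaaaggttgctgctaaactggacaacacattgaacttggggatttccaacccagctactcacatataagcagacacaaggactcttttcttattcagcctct

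**Figure D3:**
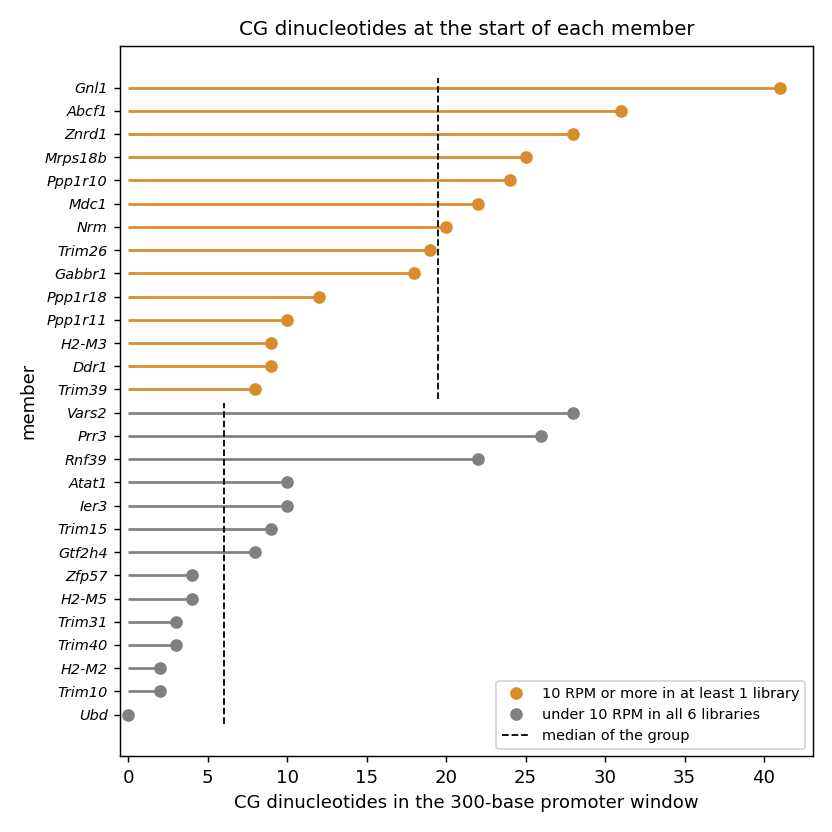
Number of CG dinucleotides in the first listed 300-base RefSeq promoter window of each of 28 members (x axis), for members at 10 RPM or more in at least 1 library (orange, above) and under 10 RPM in all 6 (grey, below). Dashed lines are the medians, 19.5 and 6, and the 2 groups overlap between 8 and 28.

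The most evenly read member was Ppp1r18 (Entrez 76448, chr17:35865593-35875596), which encodes phostensin, an actin-binding partner of protein phosphatase 1. Its level was 423, 196 and 144 RPM in MOG KO libraries, against 233, 292 and 291 RPM in WT libraries. The MOG KO values spread on both sides of the WT values. Its log2 fold change, MOG KO over WT, was -0.19 ± 1.33 (SE, n = 3 per group, 95% interval -3.26 to 2.89, adjusted p = 0.9996 in edgeR).

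The edgeR quasi-likelihood test covered 4088 genes, of which 0 (0%) reached a Benjamini-Hochberg adjusted p under 0.05 and 209 had an unadjusted p under 0.05 (5.11%). The filter on low counts requires a minimum count in at least 3 libraries. Among the members 9 met it, of which 0 passed the test and 0 had an unadjusted p under 0.05. Ddr1, Trim39 and Nrm (3202, 2826 and 1395 counts in total) did not meet it, each being present in 2 libraries only. Rpp21, with 715 counts in total, did. The smallest unadjusted p of a member was 0.383. Limma-voom also called 0 of 9 members (0% of all genes), and DESeq2 called 0 of the 8 it gave an adjusted p, where it called 6.36% of 3300 genes. Groups that did not overlap were found in 0 of the 9 members and in 10.5% of the genes tested. Positive log2 fold changes were found in 6 of 9 members, next to 52.1% of all genes tested, with medians of 0.84 for the members and 0.06 for all genes. The members' median was -0.24 without MOG KO replicate 1, -0.03 without MOG KO replicate 3 and 0.27 without WT replicate 1, with 13, 13 and 11 members tested. The 9 are those that passed a filter on low counts and do not stand for the list. Standard errors of the 9 ran from 1.33 to 3.19 on the log2 scale (median 2.78, and 2.42 over all genes tested), and all 9 intervals included 0.

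**Figure D4:**
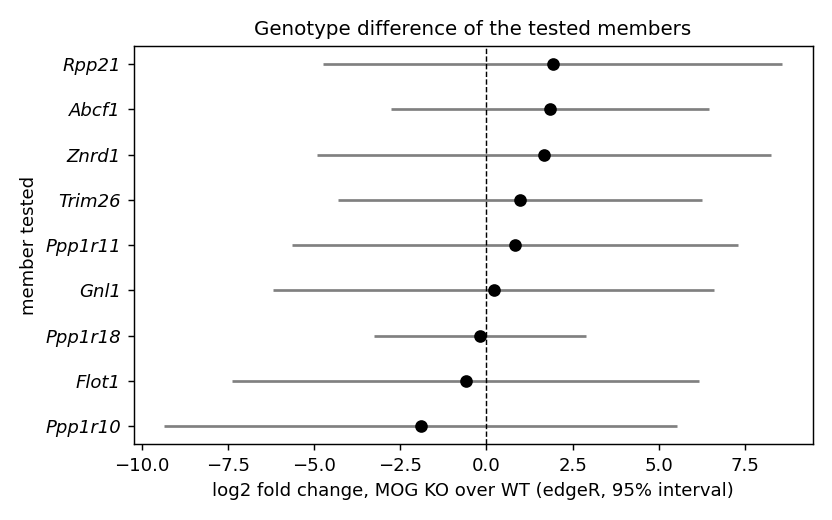
Log2 fold change, MOG KO over WT, of the 9 members tested in edgeR (points) with 95% intervals (lines). All intervals cross 0, and the narrowest, that of Ppp1r18, runs from -3.26 to 2.89.

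Other regulators of protein phosphatase 1 in the segment were read less evenly. Ppp1r11 (Entrez 76497, chr17:36948355-36951792), an inhibitor subunit, had 76.3, 73.6 and 0.29 RPM in MOG KO libraries, against 81.3, 0 and 0.85 RPM in WT libraries. It was present at similar levels in 2 MOG KO and 1 WT library and near 0 in the others (log2 fold change 0.84 ± 2.78, which was 6.68 without WT replicate 1 and 0.3 without WT replicate 2). Ppp1r10 (Entrez 52040, chr17:35916512-35932283), a nuclear targeting subunit known as PNUTS, had 0.462, 92.4 and 0.29 RPM in MOG KO libraries, against 3.68, 0 and 310 RPM in WT libraries. Only 1 library of each genotype was above 10 RPM, and the log2 fold change of -1.92 ± 3.19 was 4.1 without WT replicate 3 and -8.24 without MOG KO replicate 2.

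Of the 3 catalytic subunit genes these regulators bind, Ppp1ca and Ppp1cc were above 10 RPM in all 6 libraries, at 341 to 445 RPM in MOG KO and 284 to 425 RPM in WT libraries for Ppp1ca. The third, Ppp1cb, had 3.47, 295 and 56.8 RPM in MOG KO libraries, against 30.5, 175 and 0.283 RPM in WT libraries. Of 5 listed phosphatase partners 3 were tested and 0 passed.

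Genes of the nuclear transcription and RNA machinery were present in some libraries and near 0 in the rest. Znrd1 (Entrez 66136, chr17:36954358-36958525), a subunit of RNA polymerase I, had 0, 89.9 and 104 RPM in MOG KO libraries, against 0.368, 62.4 and 0.567 RPM in WT libraries. Rpp21 (Entrez 67676, chr17:36255673-36257846), a protein of the ribonuclease P complex that trims transfer RNA precursors, had 3.0, 94.9 and 51.9 RPM in MOG KO libraries, against 40.1, 0 and 0 RPM in WT libraries. Both were present in 2 MOG KO libraries and 1 WT library. The log2 fold change of Znrd1 was 1.67 ± 2.83 (SE, n = 3 per group) and 6.92 without WT replicate 2, the WT library that read it. That of Rpp21 was 1.92 ± 2.86 and 10.64 without WT replicate 1, the WT library that read it. Gtf2h4, a subunit of the repair and transcription factor TFIIH, had 0 counts in all 6 libraries.

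Partner subunits of these complexes were also read in some libraries only. Of 7 other RNA polymerase I genes 3 were ever present and 2 tested, of 10 other ribonuclease P genes 5 and 1, and of 9 other TFIIH genes 9 and 2. In these lists 0 genes were present in all 6 libraries and 0 passed the test.

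Genes of protein synthesis and of GTP binding ranged from 17 to 5673 counts over the 6 libraries. Abcf1 (Entrez 224742, chr17:35956819-35969750), an ATP-binding factor of translation initiation, had 7.63, 745 and 406 RPM in MOG KO libraries, against 103, 7.38 and 192 RPM in WT libraries. The highest values were in MOG KO replicates 2 and 3, but MOG KO replicate 1 was as low as WT replicate 2, and the log2 fold change was 1.84 ± 1.98 (95% interval -2.78 to 6.45, adjusted p = 0.9996 in edgeR). Gnl1 (Entrez 14670, chr17:35979955-35989462), a GTP-binding protein gene, had 0.462, 2.52 and 429.8 RPM in MOG KO libraries, against 66.6, 324 and 0.567 RPM in WT libraries. Its log2 fold change of 0.2 ± 2.75 was -6.32 without MOG KO replicate 3. Mrps18b, a protein of the mitochondrial ribosome, had 65.6, 0.229 and 0.29 RPM in MOG KO libraries, against 0.368, 0 and 0 RPM in WT libraries, and was thus present in 1 library. Vars2, the mitochondrial valyl-tRNA synthetase, had 17 counts in MOG KO replicate 2 (3.9 RPM) and 0 in the other 5 libraries.

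Members that start close together on opposite strands were compared library by library. Mrps18b starts at 35916440 on the minus strand and Ppp1r10 at 35916512 on the plus strand, 72 bases apart by their RefSeq gene ends. In 0 libraries were both present, in 3 exactly 1 of them and in 3 neither. Mrps18b was present in 1 library and Ppp1r10 in 2, too few to show whether the pair goes together. Prr3, a zinc finger gene, and Gnl1 overlap by 290 bases at their starts. Gnl1 was present in 3 libraries while Prr3 had 1 count in all, so this pair could not be present together and adds nothing to the comparison. Whether counting used strand is not stated, so reads in the overlap cannot be assigned to either gene. Of the other members, only Ppp1r10 and Abcf1 overlap a gene of the table, a microRNA gene in each case.

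Members of the tripartite motif (TRIM) family, mostly RING-type ubiquitin ligases with roles in innate immunity, divided sharply. Trim26 (Entrez 22670, chr17:36837123-36859398) had 34.0, 515 and 675 RPM in MOG KO libraries, against 627, 0.671 and 3.12 RPM in WT libraries. It was present in all 3 MOG KO libraries and 1 WT library, whose value lay within the MOG KO range, and the log2 fold change was 0.97 ± 2.27 (95% interval -4.31 to 6.26, adjusted p = 0.9996 in edgeR). Without WT replicate 1, the WT library that read it, the value was 7.61, and without WT replicate 2 it was 0.37. Trim39 (Entrez 79263, chr17:36258872-36272004), a ubiquitin ligase linked to the cell cycle and apoptosis, had 0, 0.459 and 1.16 RPM in MOG KO libraries, against 1.1, 79.1 and 698 RPM in WT libraries. WT replicate 1 lay within the MOG KO range, and the other 2 WT libraries were far above it. Trim10, Trim15, Trim31 and Trim40 and the related RING finger gene Rnf39 had 0 counts in all 6 libraries.

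Trim39 was left out of the edgeR test by the filter on low counts, which requires a minimum count in at least 3 libraries. So was Nrm (Entrez 106582, chr17:35860311-35865400), which encodes nurim, a protein of the inner nuclear membrane. Each was present in 2 libraries. Nrm had 0, 0 and 0.58 RPM in MOG KO libraries, against 178, 203 and 0.283 RPM in WT libraries. WT replicate 3 was as low as the MOG KO libraries. With DESeq2 on all genes with at least 1 count, an alternative added after the data were seen, 15.0% of 4916 genes were called, and so were 2 of the 9 members given an adjusted p. They were Trim39 (log2 fold change -9.59, adjusted p = 0.00471 in DESeq2) and Nrm (-9.1, adjusted p = 0.0103 in DESeq2). Leaving out 1 library at a time, Nrm kept an adjusted p of 0.0074 to 0.0339 in DESeq2. Trim39 had 0.099 without WT replicate 3 and 0.00382 to 0.0155 without any other library. In edgeR with no filter on low counts both had an adjusted p of 0.449, and both folds rest on a MOG KO group near 0, so their size is not interpretable. 1 WT library of each gene lay within the MOG KO range, so the groups overlapped.

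Genes at the cell surface and in signalling were present in few libraries. Flot1 (Entrez 14251, chr17:35823320-35832789), a flotillin of membrane microdomains, had 233, 0.688 and 0.869 RPM in MOG KO libraries, against 206, 0 and 117 RPM in WT libraries (log2 fold change -0.61 ± 2.91, 0.27 without WT replicate 1 and -7.1 without MOG KO replicate 1). Ddr1 (Entrez 12305, chr17:35681567-35704741), a collagen receptor kinase best known from epithelia, had 0, 287 and 0.58 RPM in MOG KO libraries, against 1.47, 0.224 and 550.5 RPM in WT libraries. It was high in 1 library of each genotype. Gabbr1 (Entrez 54393, chr17:37045966-37074305), a subunit of the GABA-B receptor and the nearest member on the other side of Mog, had 0.231, 0.229 and 0.58 RPM in MOG KO libraries, against 239.5, 0.224 and 0 RPM in WT libraries. The single WT library accounts for 651 of its 656 counts. Ier3, an immediate early gene induced by NF-kB, had 5 counts in all.

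Mdc1, Zfp57, Atat1 and Ubd, genes of DNA repair, imprinting, tubulin acetylation and protein tagging, had few or no reads. Mdc1, a scaffold of the DNA damage response, had 0 counts in all 3 MOG KO libraries, against 0, 47.6 and 0 RPM in WT libraries. Zfp57, which maintains methylation at imprinted loci and lies next to Mog, had 0 counts in all 6 libraries, as had Atat1, the alpha-tubulin acetyltransferase, and Ubd, which encodes the ubiquitin-like protein FAT10.

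The class I genes among the members are H2-M2, H2-M3 and H2-M5. H2-M3 (Entrez 14991, chr17:37270234-37274485), a nonclassical class I molecule that presents N-formylated peptides, had 0.462, 89.0 and 0.869 RPM in MOG KO libraries, against 161, 0.224 and 1.42 RPM in WT libraries. It was present in 1 library of each genotype. H2-M2 and H2-M5 had 1 count each over the 6 libraries.

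By distance, no test was run on how often members were present. In the far stretch 9 of 14 were ever present, and in the stretch around Mog 5 of 14 (Trim26, Ppp1r11, Znrd1, Gabbr1 and H2-M3). Around Mog the members summed to 111, 768 and 780.1 RPM in MOG KO libraries, against 1109, 63.5 and 5.95 RPM in WT libraries. WT replicate 1 was above the MOG KO libraries and the other 2 WT libraries were below them, and in WT replicate 3, 0 of these 14 were present. Of these sums, Trim26 alone had 34.0, 515 and 675 RPM in MOG KO libraries, against 627, 0.671 and 3.12 RPM in WT libraries. The sums therefore largely follow 1 gene where they are high. The far stretch summed to 730.2, 1328 and 982 RPM in MOG KO libraries and 793, 874 and 1461 RPM in WT libraries.

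**Figure D5:**
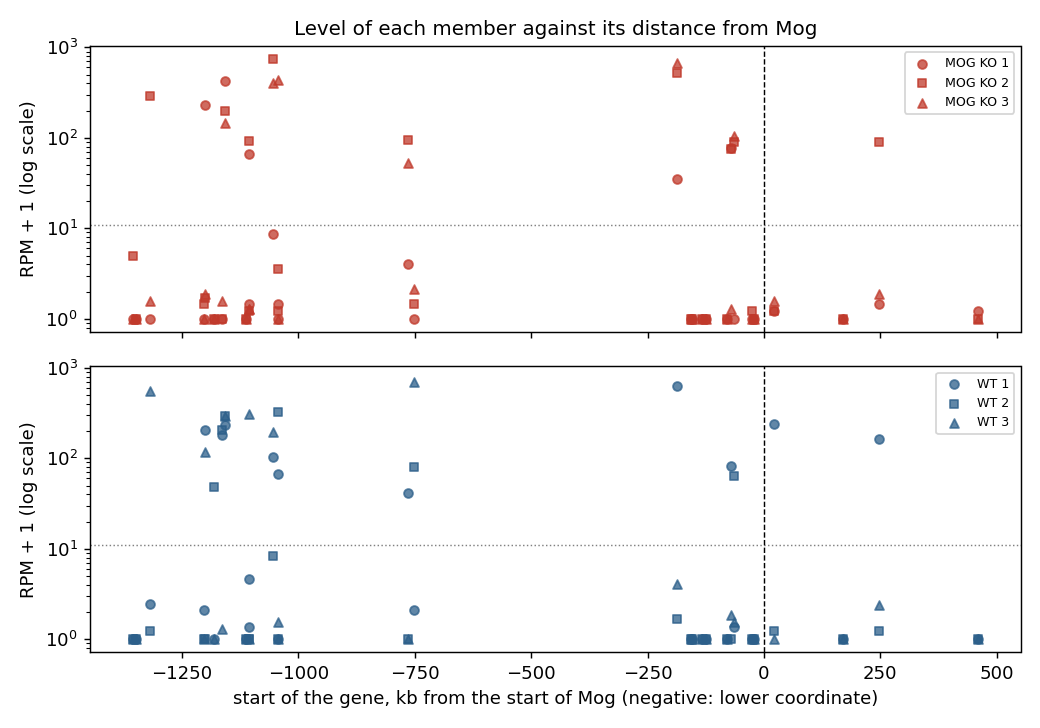
Level of each member as RPM + 1 (y axis, log scale) against the distance of its start from the start of Mog in kb (x axis), in MOG KO libraries (above) and WT libraries (below), 1 marker shape per replicate. The dashed line is Mog and the dotted line is 10 RPM, and of the 96 values of the 16 members ever present, 42 lie on or above the dotted line and 49 under 3 RPM.

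Other genes within 1 Mb of Mog included a class I group that was read in every library. Of 76 genes there besides Mog, 16 are members, and 18 were ever present, 7 of them members. Per library 10, 15 and 12 of the 76 were present in MOG KO libraries and 13, 10 and 10 in WT libraries. Of 36 olfactory receptor genes 1 was ever present, Olfr99, in WT replicate 3. The 8 genes present in all 6 libraries were 3 of the 4 H2-T genes and 5 of the 20 genes of other kinds, among them predicted class I genes with near-identical copies, which may share reads. Summed over the 76 genes, the level was 5826, 7541 and 8926 RPM in MOG KO libraries, against 3694, 4804 and 5176 RPM in WT libraries, with no overlap, while the sum over the 16 members there overlapped. Among the others, 8 were tested, of which H2-T23, H2-T10, H2-Bl, Gm11127, Gm7030 and Gm8909 were higher in every MOG KO library than in any WT library. Over all 4088 genes tested, 10.5% had groups that did not overlap, in either direction. Class I genes that share reads are not separate observations, so these genes cannot be counted as independent. H2-T23, which encodes the nonclassical class I molecule Qa-1, had 1101, 1198 and 1485 RPM in MOG KO libraries, against 649.7, 931 and 1039 RPM in WT libraries (log2 fold change 0.46 ± 0.34, unadjusted p = 0.216 in edgeR). None of the 8 passed the test (adjusted p = 0.9996 in edgeR for each), and 0 had an unadjusted p under 0.05, the smallest being 0.0708 for Gm7030. Beyond this window, Tubb5, a main beta tubulin that lies between Flot1 and Mdc1, had 259, 113 and 413 RPM in MOG KO libraries, against 244, 309.9 and 587 RPM in WT libraries (log2 fold change -0.64 ± 1.16, adjusted p = 0.9996 in edgeR).

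Partners of the remaining members were read from the same test, in which 0 genes of any list passed. Mitochondrial ribosome paralogs of Mrps18b gave 2 genes tested, both with negative values. Mrps18c had 96.8, 53.7 and 67.8 RPM in MOG KO libraries, against 73.6, 61.0 and 103 RPM in WT libraries. Mrps18a had 0.231, 0 and 0 RPM in MOG KO libraries, against 65.1, 69.8 and 132 RPM in WT libraries. Its groups did not overlap, as was found for 10.5% of the genes tested. Its adjusted p of 0.602 in edgeR was the smallest over all genes and was shared by other genes. Of 11 tubulin genes, relatives of Tubb5 and in part substrates of Atat1, 5 were tested. Of these, 1 had a positive and 4 a negative value, next to 52.1% positive over all genes tested. An unadjusted p under 0.05 in edgeR was found for 3 of the 5, next to 5.11% of all genes tested. Tuba1b had 305, 478 and 481 RPM in MOG KO libraries, against 966, 897 and 6615 RPM in WT libraries (log2 fold change -2.89 ± 0.86, adjusted p = 0.602 in edgeR). Tuba1c had 161, 589 and 598 RPM in MOG KO libraries, against 1020.0, 1141 and 4782 RPM in WT libraries (-2.48 ± 0.81, adjusted p = 0.65 in edgeR). The groups of Tuba1b and Tuba1c did not overlap, as was found for 10.5% of the genes tested. The alpha tubulin genes have near-identical copies that may share reads, so they cannot be counted as independent.

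Of 9 genes of DNA damage foci, where Mdc1 acts, 9 were ever present and 3 tested, all with positive values. Of the 6 not tested, Brca1, H2afx, Mre11a, Nbn and Rnf168 were present in WT libraries only, H2afx in 2 and the others in 1 each. Rnf8 was present in 1 library of each genotype. Of all genes ever present, 24.2% were present in WT libraries only and 18.45% in MOG KO libraries only. A gene present in 1 library can be present in 1 genotype only. These shares also cover genes present in more libraries, so they are not a base rate for the 6 untested genes. The 9 genes summed to 218, 816 and 542 RPM in MOG KO libraries, against 7.36, 1212 and 1625 RPM in WT libraries, which overlapped. Of 3 genes of the FAT10 pathway, in which Ubd acts, 2 were tested, 1 in each direction. Trim28, the cofactor of Zfp57, had 336, 263 and 1.74 RPM in MOG KO libraries, against 2.94, 164 and 0.567 RPM in WT libraries. Flot2, the partner of Flot1, was present in MOG KO replicate 2 only, at 360 RPM. Abcf3 had 239, 0.459 and 0.869 RPM in MOG KO libraries, against 0.736, 116 and 512 RPM in WT libraries, while Abcf2 was never present.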

How the data were processed

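RNA of lymph node Tregs was measured in 3 MOG KO and 3 WT libraries. The authors deposited raw counts per gene (whole numbers, exon reads). The deposited RPM table holds reads-per-million values, which equal each count divided by its column total (differences under 1e-06). STAR 2.3.1, R 3.2.2 and build mm10 are named, per the submitters' processing notes. How reads were assigned to genes, with or without strand, is not stated there. Per the labels' protocols, cDNA was amplified by 15 PCR cycles without mention of molecular identifiers, so floors cover counting error only.

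Members were matched by symbol. The members and lists were chosen with earlier results of these data known. Coordinates are RefSeq's on GRCm38.p6 (the assembly of mm10), matched by Entrez identifier, with strands from GENCODE M21. The test used edgeR 4.0.16 under R 4.3.3 (filterByExpr, TMM scaling, robust quasi-likelihood fit, genotype as the model), over all 4088 genes kept, with Benjamini-Hochberg adjustment and a threshold of 0.05. The SE is the absolute log2 fold change over the square root of F, and intervals use the moderated degrees of freedom. Alternatives were DESeq2 1.42.0, limma-voom (limma 3.58.1), other scaling and filters, a replicate block and leaving out each library. All 30 members are named. Those at 10 RPM or more in at least 1 library have the value of every library, and of each partner list up to 2 genes of highest mean RPM may be named. Ppp1cb, the DNA damage genes and the neighbours other than Mog were named after their values were seen.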

Additional observations from a re-analysis of the deposited data

How the results depend on the processing

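Members past the threshold stayed at 0 in edgeR under DESeq2 size factors, no filter, a filter of 50 counts in 3 libraries, the replicate block and each left-out library, in limma-voom, and in DESeq2 on the genes tested in edgeR, which called 210 genes in all. DESeq2 on all genes with at least 1 count, added after the data were seen, called 738 genes and 2 members, Nrm and Trim39, and 11 of 21 members had positive values there. With no filter in edgeR 21 members entered and 10 were positive, H2-M2, H2-M5 and Prr3 among them with 1 count each. The cause of these differences was not tested. Gnl1 (0.2) changed sign with no filter (-0.02), in limma-voom (-1.75) and under the replicate block (-5.38). Leaving out 1 library at a time, the log2 fold change of Gnl1 ran from -6.32 to 2.08, of Flot1 from -7.1 to 0.27, of Ppp1r10 from -8.24 to 4.1, of Ppp1r18 from -0.71 to 0.1, of Rpp21 from 1.07 to 10.64, of Trim26 from 0.37 to 7.61, of Znrd1 from 1.04 to 6.92, of Ppp1r11 from 0.3 to 6.68 and of Abcf1 from 0.92 to 2.83. Under the replicate block Rpp21 was 8.28 and Trim26 6.75. The median over tested members ran from -0.242 to 0.408 over the left-out libraries and was -0.0202 with no filter. These arms of 2 libraries borrow their spread from the other genes. At 1 RPM or more 9.0 members were present per library and 2 in all 6, and at 50 RPM 6.5 and 1. The neighbourhood had 2.33 genes present per library within 0.5 Mb of Mog, 31.5 within 2 Mb and 11.7 within 1 Mb. Deviations of same-numbered libraries correlated at -0.022, -0.0021 and -0.018 over genes. Differently numbered libraries were not compared, and most genes were read in some libraries only, so whether replicate numbers pair the libraries was not settled. Of the 30 members 15 were present in 1 to 5 libraries, and the 9 intervals, the narrowest from -3.26 to 2.89, leave large differences not detectable at this depth and spread.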
